A study of Mus musculus with 45 samples.

Results

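The ileum of mice that lacked both FADD and RIPK3 in intestinal epithelial cells was compared with that of mice that lacked epithelial FADD alone. The comparison used 10 of the 45 arrays of the study, 5 labelled FADD IEC-KO RIPK3 IEC-KO (the double mutants) and 5 labelled FADD IEC-KO, taken by the genotype in each sample's title. IEC-KO stands for a knockout in intestinal epithelial cells, and both groups are labelled with the epithelial Fadd deletion, so RIPK3 is the labelled difference; 1 library's Fadd value goes against its label, as given with the targeted genes. The 3 groups of 5 that served as reference points were Fadd fl/fl mice with an undeleted floxed Fadd gene, FADD IEC-KO Mlkl-/- mice and FADD IEC-KO Zbp1-/- mice, in which MLKL or ZBP1 is lost by a -/- allele that is not written as epithelial. The remaining 4 groups carry Casp8 alleles. All mice were 11 weeks old by the sample descriptions, although the source labels carry week numbers that differ between mice. They were kept under specific pathogen-free conditions on chow, and gave 1 sample of ileum each, frozen on dry ice. Sex, litter and the Cre driver are not in the labels used here. RNA from whole ileum was labelled for Affymetrix whole-transcript arrays, and the values are normalized log2 intensities, on which a difference of 1 is a change of 2-fold. In whole tissue, fewer cells of a type and less RNA per cell cannot be told apart.

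FADD is the adaptor that brings caspase-8 to death receptors, and caspase-8 in turn keeps the kinases RIPK1 and RIPK3 in check. When that brake is missing, RIPK3 can phosphorylate MLKL, which breaks the plasma membrane and ends in necroptosis; ZBP1 is a nucleic acid sensor that can switch RIPK3 on. In the ileum, loss of epithelial FADD or caspase-8 is known for epithelial cell death, inflammation and loss of Paneth cells. Paneth cells sit at the base of the crypts and secrete antimicrobial alpha-defensins and lysozyme.

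The alpha-defensin genes lie side by side on chromosome 8, and the start regions of 5 of them are shown because alpha-defensins made up 9 of the 10 largest rises. The letters are the 150 bases upstream of the annotated start, written 5′ to 3′ on the gene's strand, from the RefSeq table for GRCm38.p6. These are all the genes among those 9 for which that table held a window. The capitals mark TCAAAG, the core bound by TCF and LEF proteins of the Wnt pathway, and TATAAA, the TATA box, each searched on both strands.
Defa28: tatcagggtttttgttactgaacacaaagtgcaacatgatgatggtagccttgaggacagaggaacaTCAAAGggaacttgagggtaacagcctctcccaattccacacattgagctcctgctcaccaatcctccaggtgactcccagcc
Defa43: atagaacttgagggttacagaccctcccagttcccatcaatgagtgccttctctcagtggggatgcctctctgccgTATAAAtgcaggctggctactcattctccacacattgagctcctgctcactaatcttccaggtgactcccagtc
Defa41: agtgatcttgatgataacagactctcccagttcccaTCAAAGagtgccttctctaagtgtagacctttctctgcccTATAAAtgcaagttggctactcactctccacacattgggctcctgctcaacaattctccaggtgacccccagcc
Defa35: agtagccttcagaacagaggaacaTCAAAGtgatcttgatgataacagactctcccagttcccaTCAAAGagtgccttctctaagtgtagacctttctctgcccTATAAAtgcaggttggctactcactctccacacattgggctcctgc
Defa2: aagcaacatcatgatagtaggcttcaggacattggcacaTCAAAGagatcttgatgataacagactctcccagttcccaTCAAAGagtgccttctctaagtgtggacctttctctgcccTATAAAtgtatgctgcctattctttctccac
The windows are chr8:21582877-21583026 on the plus strand for Defa28, chr8:21594466-21594615 on the minus strand for Defa43, chr8:21201454-21201603 on the plus strand for Defa41, chr8:21064888-21065037 on the plus strand for Defa35, chr8:21378367-21378516 on the plus strand for Defa2. TCAAAG was present in 13 of the 16 alpha-defensin windows (81.2%) and in 7.93% of all 32851 promoter windows of the same length. TATAAA was present in 15 of the 16 (93.8%) and in 7.57% of all windows. The window of Defa28 held TCAAAG and no TATAAA, and that of Defa43 held TATAAA and no TCAAAG. The windows of Defa2 and Defa20 were identical over all 150 bases, and so were those of Defa43 and Defa42. Defa21 and Defa22, Defa23 and Defa31, and Defa36 and Defa37 also had identical windows. The 16 windows are therefore not 16 separate sequences. A match describes these letters only, and a window without one says nothing of a factor's binding.

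The targeted transcripts were examined first. Ripk3 was 8.83, 8.37, 9.01, 8.29 and 9.25 in the 5 FADD IEC-KO mice and 7.47, 7.54, 7.76, 7.33 and 7.38 in the 5 double mutants. Every double mutant was below every FADD IEC-KO mouse. Ripk3 fell by 1.25 ± 0.16 (log2 difference ± SE, limma adjusted p = 3.53e-05). The remaining signal in whole ileum cannot be assigned to cells that keep the gene, because cells were not separated. Fadd was 6.27, 5.84, 6.22, 6.16 and 6.17 in the double mutants and 7.32, 5.96, 6.31, 6.45 and 6.21 in FADD IEC-KO. The first FADD IEC-KO library, at 7.32, lay close to the Fadd fl/fl mice (7.46 to 7.61) and above the other 4 libraries of its label. It is therefore called the library labelled FADD IEC-KO replicate 1. The count of genes that passed and some of the other results are given with and without it. Without it the fall of Ripk3 was 1.23 ± 0.17 on the log2 scale (limma adjusted p = 1.34e-04). Casp8 (0.20 ± 0.14), Mlkl (-0.38 ± 0.19) and Zbp1 (-0.11 ± 0.29) did not pass the test in the double mutants against FADD IEC-KO. The ileal transporter Slc10a2 (11.5 to 11.88) and the bile acid binding protein Fabp6 (11.89 to 12.82) were high in all 10 arrays.

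**Figure D1:**
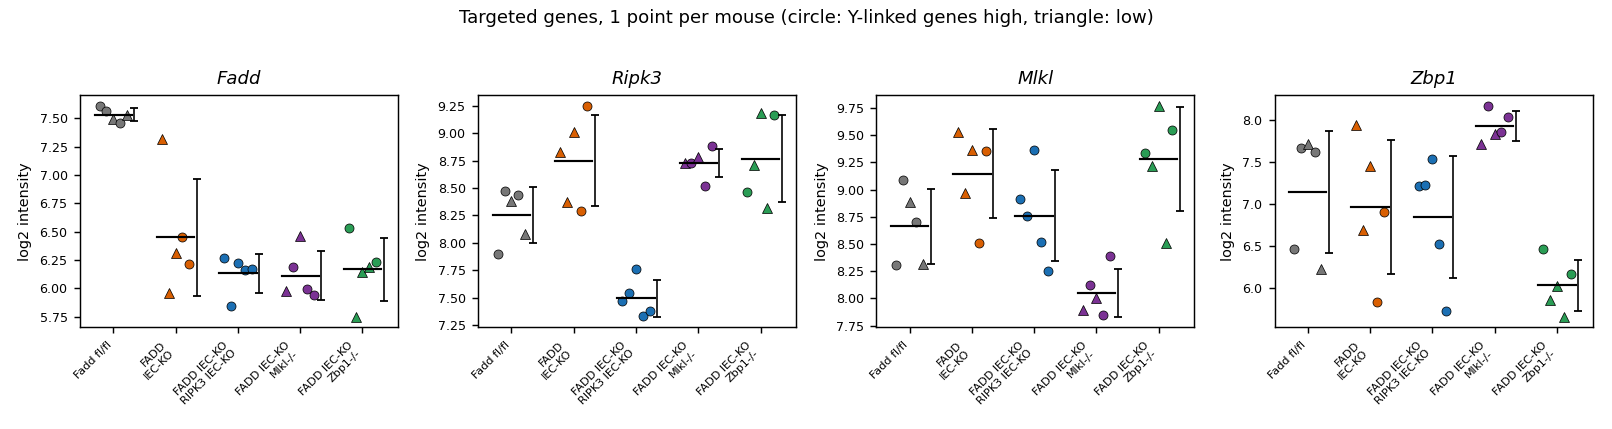
Log2 intensity (vertical axis) of Fadd, Ripk3, Mlkl and Zbp1 in each mouse of 5 groups; the horizontal line is the group mean, the bar beside it 1 SD (n = 5), circles are mice with high and triangles mice with low Y-linked genes. Ripk3 in the double mutants (7.33 to 7.76) sits below every FADD IEC-KO mouse (8.29 to 9.25), and the library labelled FADD IEC-KO replicate 1 has Fadd at 7.32.

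The groups were not alike in sex or in the mice's title numbers. The mean of 3 Y-linked genes (Kdm5d, Uty, Eif2s3y) was high in all 5 double mutants and in 2 of the 5 FADD IEC-KO mice, replicates 4 and 5. It was high in 3 of 5 Fadd fl/fl, 3 of 5 FADD IEC-KO Mlkl-/- and 2 of 5 FADD IEC-KO Zbp1-/- mice. Title numbers under 100 belonged to 3 double mutants and 4 FADD IEC-KO mice, and those of 200 and over to 2 and 1. The comparison was therefore also fitted with the Y-linked mean as a covariate (the sex index), and each named gene that no longer passed then is said to have lost its call.

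Of the 19494 genes tested, 303 (1.55%) passed an adjusted p of 0.05 between double mutants and FADD IEC-KO mice. There were 162 genes that rose (0.831%) and 141 that fell (0.723%). The change was at least 2-fold for 64 genes (0.328%), and the median log2 difference over all genes was 0.007. In 508 genes (2.61%), called or not, the values of the 2 groups did not overlap, and 176 of the 303 called genes were among them. Of the 508, 255 were higher (1.31%) and 253 lower (1.3%), and 2759 genes (14.2%) had an unadjusted p under 0.05. The largest rises were alpha-defensins and Hao2, and the largest falls were Car1, Nox1, Il1rn, Myot and Anxa1. The count was 19 when the spread was estimated from these 10 arrays alone, 126 with the sex index, and 346 without the library labelled FADD IEC-KO replicate 1. It was 185, 158, 124 and 142 without double mutant replicate 1, 2, 4 or 5, and 132, 53, 667 and 74 without FADD IEC-KO replicate 2, 3, 4 or 5.

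**Figure D2:**
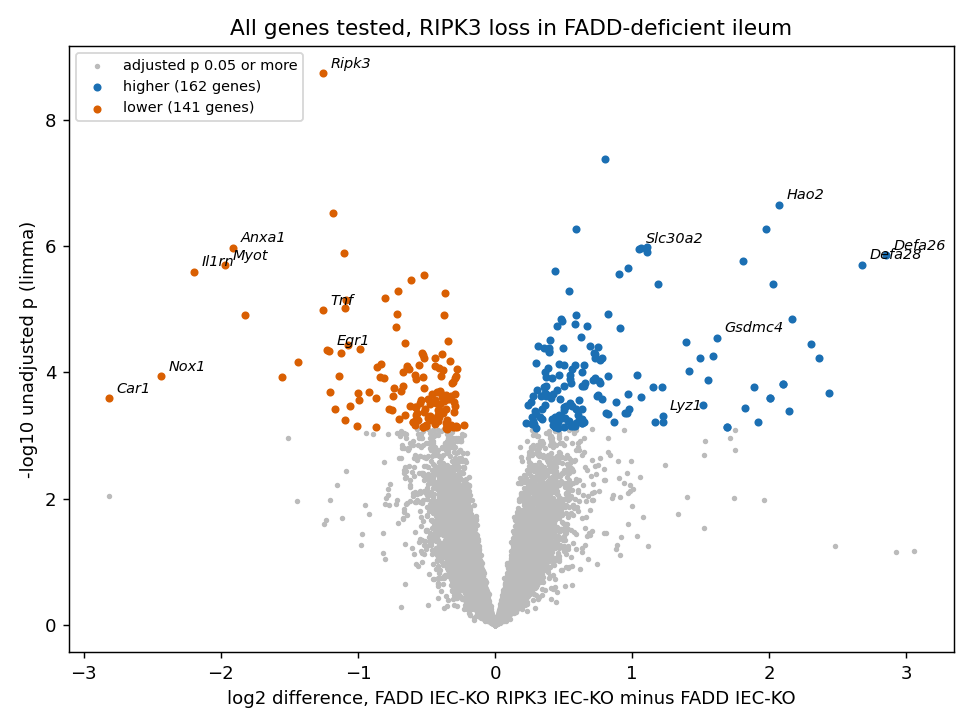
Each point is 1 of the 19494 genes tested; the horizontal axis is the log2 difference, double mutants minus FADD IEC-KO, and the vertical axis is -log10 of the unadjusted limma p. The 162 genes that rose (blue) reach 2.85 for Defa26, the 141 that fell (orange) reach -2.81 for Car1, and gray points did not pass.

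Alpha-defensins, the pore-forming peptides of Paneth cell granules, made up 9 of the 10 largest rises among the genes that passed. Of 21 listed alpha-defensins with a probe, 17 rose, none fell and 4 did not pass, with a median log2 difference of 1.92 against 0.007 over all genes. Because Defa3 and Defa17, and Defa20 and Defa32, had the same values in all 45 arrays, the 21 are 19 distinct rows, of which 15 rose. Defa2 and Defa33, which is outside the list, also shared 1 row. Cross-hybridization between these near-identical genes was not tested, so the levels of single members are uncertain.

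Defa26 was 8.63, 6.05, 6.92, 7.96 and 5.48 in FADD IEC-KO and 9.96, 9.79, 9.85, 9.77 and 9.92 in the double mutants. The double mutants lay close together (SD 0.08), the FADD IEC-KO mice were spread (SD 1.3), and the groups did not overlap. Defa26 rose by 2.85 ± 0.50, or 7.22-fold (limma adjusted p = 0.0021; two-sided exact permutation p = 0.0079, the smallest that 5 against 5 allows). Defa28 was 5.57, 4.08, 4.9, 4.14 and 3.15 in FADD IEC-KO and 6.58, 7.01, 6.47, 7.2 and 7.97 in the double mutants. It rose by 2.68 ± 0.48 (limma adjusted p = 0.0024), again with no overlap. The lowest values of Defa26 and Defa28 belonged to FADD IEC-KO replicate 5, and the highest FADD IEC-KO values of both to the library labelled replicate 1.

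Defa34 rose by 2.44 ± 0.60, Defa43 by 2.36 ± 0.53 and Defa41 by 2.30 ± 0.50. Defa39 rose by 2.17 ± 0.44, Defa35 by 2.14 ± 0.56, and the shared row of Defa2 and Defa33 by 2.10 ± 0.50. Of these, Defa34, Defa43, Defa35 and the row of Defa2 and Defa33 lost their calls with the sex index, at adjusted p of 0.0913, 0.0512, 0.1062 and 0.0840. The members that did not pass were Defa21 (1.75 ± 0.52), Defa22 (1.72 ± 0.49), Defa25 (0.91 ± 0.33) and Defa27 (0.57 ± 0.23). In 19 of the 21 the groups did not overlap, upwards, as in 1.31% of all genes. All 21 differences were above 0 in every alternative in which they were measured. For the 19 without overlap, leaving out mice could give no other sign.

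How many alpha-defensins passed depended on the samples. It was 4 of 21 with the sex index (median 1.74), with Defa26 at 2.64 ± 0.52 (adjusted p = 0.0085) and Defa34 at 2.16 ± 0.61 (adjusted p = 0.0913). Among the mice with high Y-linked genes, 5 against 2, it was 19 of 21, with a median of 2.23. Without the library labelled FADD IEC-KO replicate 1 it was 19, without FADD IEC-KO replicate 2, 3 or 5 it was 5, 5 and 2, and without double mutant replicate 1, 2, 4 or 5 it was 8, 7, 5 and 5. The median stayed between 1.68 and 2.23 in these leave-outs.

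Other Paneth cell products went both ways: 1 of 16 passed, a rise, and the median was 0.28. Of the 16 differences, 12 were above 0 and 4 below, from -1.15 to 1.96. The mean level over the 16 genes was 7.73 to 8.09 in FADD IEC-KO and 8.09 to 8.67 in the double mutants. A gene that did not pass is not shown to be unchanged. Lyz1, the lysozyme of Paneth cells, was 10.44, 9.86, 10.02, 9.86 and 10.21 in FADD IEC-KO and 11.44, 10.93, 10.96, 11.32 and 11.84 in the double mutants. The groups did not overlap, and Lyz1 rose by 1.22 ± 0.32 (limma adjusted p = 0.0407; 0.1082 with the sex index), a call kept in 3 of 10 leave-outs and lost without double mutant replicate 1, 2, 4 or 5 or FADD IEC-KO replicate 2, 3 or 5. The angiogenin Ang4 (1.33 ± 0.54), the colipase gene Clps (1.24 ± 0.39) and the pentraxin Mptx1 (1.96 ± 0.73) did not pass, at adjusted p of 0.2241, 0.0999 and 0.1793. Mmp7, the protease that activates alpha-defensin precursors in mice, was at -0.65 ± 0.25 (adjusted p = 0.1906), and the secreted phospholipase Pla2g2a at -1.15 ± 0.40 (adjusted p = 0.1373). Mptx1, Mmp7 and Pla2g2a were chosen after their values were seen.

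Genes of the gasdermin C cluster, relatives of the pore-forming gasdermin D, rose. Of 23 measured gasdermin and inflammasome genes, 4 rose (Gsdmc4, Gsdmc3, Gsdmc2 and Gsdmc), 1 fell and 18 did not pass; the median was -0.02. Gsdmc4 was 8.92, 6.58, 6.6, 8.05 and 7.5 in FADD IEC-KO and 9.37, 9.29, 9.09, 9.38 and 8.61 in the double mutants. The library labelled FADD IEC-KO replicate 1, at 8.92, reached into the double mutant range. Gsdmc4 rose by 1.62 ± 0.34 (limma adjusted p = 0.0120), and by 1.97 ± 0.33 without that library (adjusted p = 0.0010). Gsdmc3 rose by 1.59 ± 0.35 and Gsdmc2 by 1.5 ± 0.33. The 4 gasdermin genes also passed with the sex index, but none did without FADD IEC-KO replicate 3, 1 did without replicate 2, and none did among the mice with high Y-linked genes. The 4 are near copies of one another, so their probes may share signal; this was not tested. The gene that fell was Aim2, a sensor of cytosolic DNA, at -0.80 ± 0.16. Gsdmc and Aim2 were named after their values were seen.

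Hao2, a peroxisomal hydroxy acid oxidase, was the 1 gene among the 10 largest named rises that is no alpha-defensin. It was 6.03, 5.44, 3.55, 6.7 and 5.12 in FADD IEC-KO and 7.37, 7, 7.02, 7.97 and 7.82 in the double mutants, with no overlap. It rose by 2.07 ± 0.33 (limma adjusted p = 0.0014), by 2.05 ± 0.35 with the sex index, and it passed in all 10 fits that left out 1 mouse. Hao2 lost its call when these 10 arrays alone set the spread, and among the mice with high Y-linked genes. Of 19 brush border and sugar digestion genes 4 rose, 15 did not pass and all 19 differences were above 0, with a median of 0.37. The neutral amino acid transporter Slc6a19 rose by 0.64 ± 0.17, the aminopeptidase Enpep by 0.46 ± 0.12 and the microvillar motor Myo1a by 0.37 ± 0.09. None of the 19 passed with the sex index, where the median was 0.34, and none passed without double mutant replicate 2, 4 or 5 or FADD IEC-KO replicate 3 or 5.

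Hormone and ion genes gave a few further rises. Pyy, the peptide hormone of distal enteroendocrine cells, was 8.58, 7.9, 8.16, 8.65 and 8.12 in FADD IEC-KO and 9.08, 8.91, 9.08, 9.21 and 9.12 in the double mutants. It rose by 0.80 ± 0.12 (limma adjusted p = 3.97e-04) without overlap and passed in every leave-out and with the sex index. Pyy lost its call when only the 2 groups set the spread. Neurotensin, Nts, rose by 1.15 ± 0.28, and these were the 2 of 17 enteroendocrine genes that passed. Nts lost its call with the sex index (adjusted p = 0.0555) and without double mutant replicate 4 or 5 or FADD IEC-KO replicate 2, 3 or 5. Of 8 metallothionein and zinc genes 2 rose, the vesicular zinc transporter Slc30a2 (1.05 ± 0.18, limma adjusted p = 0.0021) and the zinc importer Slc39a5 (0.59 ± 0.12), which lost its call without FADD IEC-KO replicate 3. Of 21 ion transport and tight junction genes, the carbonic anhydrase Car4 rose by 0.72 ± 0.16 and Car1 fell; Car4 lost its call without FADD IEC-KO replicate 2 or 5.

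**Figure D3:**
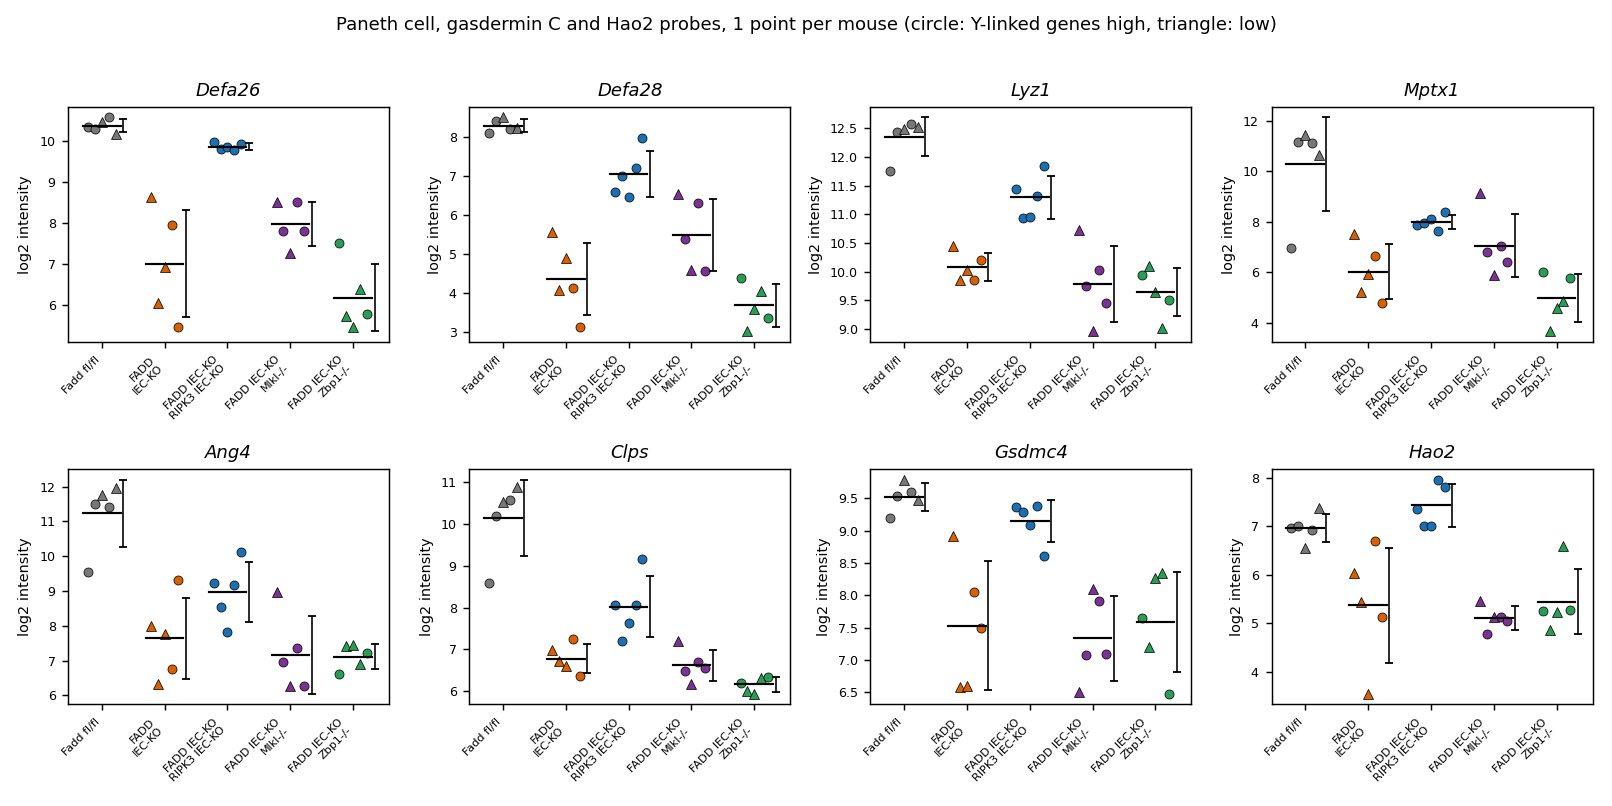
Log2 intensity of 8 genes in each mouse of 5 groups, with the group mean (line) and 1 SD (bar, n = 5); circles are mice with high and triangles mice with low Y-linked genes. Defa26 in the double mutants (9.77 to 9.96) lies above all FADD IEC-KO mice (5.48 to 8.63), whereas Ang4 and Clps overlap with FADD IEC-KO and their means lie below that of Fadd fl/fl.

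The falls that held in all leave-outs were those of Ripk3, Il1rn, Anxa1 and Myot among the named genes. Among the mice with high Y-linked genes Il1rn, Anxa1 and Myot lost their calls. Myot also lost its call when only the 2 groups set the spread. Il1rn, which encodes the interleukin 1 receptor antagonist, was 7.9, 8.57, 8.71, 6.91 and 9.31 in FADD IEC-KO and 6.25, 5.73, 5.87, 5.89 and 6.69 in the double mutants. The groups did not overlap, and Il1rn fell by 2.20 ± 0.40 (limma adjusted p = 0.0026), or by 2.07 ± 0.42 with the sex index. Anxa1, an anti-inflammatory annexin, was 8.64, 8.84, 9.29, 7.98 and 9.79 in FADD IEC-KO and 7.14, 6.82, 7.01, 7.05 and 6.98 in the double mutants. It fell by 1.91 ± 0.33 (limma adjusted p = 0.0021), with no overlap. With the calcium binding protein S100a6, at -0.75 ± 0.19, these were the 3 of 16 genes of the fetal-like and repair list that fell; the list's median was -0.48 and none rose. Il1rn and Anxa1 passed in all 10 leave-outs and with the sex index, S100a6 in 3 of the 10 and not with it. S100a6 lost its call without double mutant replicate 1, 2, 3 or 4 or FADD IEC-KO replicate 2, 3 or 5.

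Car1 and Nox1 had the 2 largest falls among the named genes that passed, and in both the groups overlapped. Car1, a cytosolic carbonic anhydrase typical of colon, was 10.23, 10.61, 5.53, 8.26 and 11.52 in FADD IEC-KO and 6.72, 6.58, 6.12, 5.64 and 7.03 in the double mutants. FADD IEC-KO replicate 3, at 5.53, was below all 5 double mutants, and the other 4 were above them. Car1 fell by 2.81 ± 0.70 (limma adjusted p = 0.0291), and did not pass with the sex index (-2.72 ± 0.74, adjusted p = 0.0735) or without the library labelled FADD IEC-KO replicate 1 (-2.56 ± 0.75, adjusted p = 0.0607). It was kept in 4 of 10 leave-outs, with differences from -3.74 to -2.24, and was also lost without FADD IEC-KO replicate 2 or 5 or double mutant replicate 2, 3 or 4. Nox1, an epithelial NADPH oxidase, was 8.57, 8.63, 9.34, 6.41 and 9.22 in FADD IEC-KO and 6.46, 6.37, 6.51, 5.15 and 5.5 in the double mutants. FADD IEC-KO replicate 4, at 6.41, lay within the double mutant range. Nox1 fell by 2.44 ± 0.57 (limma adjusted p = 0.0205), at 0.0642 with the sex index, and lost its call without double mutant replicate 4 or 5 or FADD IEC-KO replicate 2, 3 or 5. Reg3a, an antimicrobial lectin, rose by 1.22 ± 0.30, and Nox1 and Reg3a were the only 2 of 20 measured genes of the REG3 and epithelial antimicrobial list that passed. Reg3a lost its call with the sex index (adjusted p = 0.0610) and in the same 5 leave-outs as Nox1.

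Tnf, the cytokine of the death receptor pathway, and Tnfrsf1b, the gene of its type 2 receptor, both fell. Tnf was 6.42, 6.01, 7.31, 5.52 and 6.35 in FADD IEC-KO and 4.99, 5.39, 5, 4.76 and 5.2 in the double mutants. The highest double mutant, at 5.39, was below the lowest FADD IEC-KO mouse, at 5.52. Tnf fell by 1.25 ± 0.25 (limma adjusted p = 0.0064; 0.0208 with the sex index) and Tnfrsf1b by 0.66 ± 0.14 (adjusted p = 0.0133). The other 15 measured genes of the TNF and death receptor list did not pass, and the list's median was -0.09. Neither gene passed without FADD IEC-KO replicate 3. Tlr4, the receptor for bacterial lipopolysaccharide, fell by 1.22 ± 0.27 and the immediate early transcription factor Egr1 by 1.21 ± 0.27, the 1 of 14 immediate early genes that passed. Tlr4 lost its call with the sex index (adjusted p = 0.0501) and without FADD IEC-KO replicate 5, and Egr1 without FADD IEC-KO replicate 3.

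The other large falls were Myot (1.97 ± 0.36 lower), a gene known for a protein of muscle Z-discs, the retinol dehydrogenase Dhrs9 (1.55 ± 0.37 lower) and the aldo-keto reductase Akr1b8 (1.44 ± 0.32 lower). Dhrs9 lay between 4.39 and 4.48 in the double mutants and between 5.39 and 6.42 in FADD IEC-KO. It lost its call with the sex index (adjusted p = 0.0683) and without FADD IEC-KO replicate 2, 3 or 5. Akr1b8 and the glutathione transferase Gsta3, which fell by 0.63 ± 0.14, were the 2 of 25 xenobiotic metabolism genes that passed, and both lost their calls without FADD IEC-KO replicate 3 or 5. Of 15 smooth muscle genes none passed, and their median was 0.21.

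The leading changes had the same direction within each subset of mice. The subsets are parts of the mice from which these genes were picked, so this is no separate check. For Defa26, Hao2, Lyz1, Il1rn and Tnf the groups did not overlap, so any subset must give the same sign. For Gsdmc4, Car1 and Nox1 the full groups overlapped. Within each subset below Gsdmc4 did not overlap, so its sign was fixed there too. Car1 overlapped only among title numbers under 100, and Nox1 there and among mice with high Y-linked genes. Only in those cases could the sign have turned. Among mice with high Y-linked genes, 5 against 2, the log2 difference was 3.14 for Defa26, 1.53 for Hao2, 1.26 for Lyz1 and 1.38 for Gsdmc4, and -2.03 for Il1rn, -0.87 for Tnf, -3.47 for Car1 and -1.82 for Nox1. Among title numbers under 100, 3 against 4, it was 2.48 for Defa26, 1.7 for Hao2, 1.07 for Lyz1 and 1.72 for Gsdmc4, and -2.07 for Il1rn, -1.19 for Tnf, -2.19 for Car1 and -1.79 for Nox1. Among title numbers of 200 and over, 2 against 1 and so without a test, it was 4.37 for Defa26, 2.78 for Hao2, 1.37 for Lyz1 and 1.5 for Gsdmc4, and -3.02 for Il1rn, -1.37 for Tnf, -5.19 for Car1 and -3.9 for Nox1. No gene passed among title numbers under 100, where 1982 had an unadjusted p under 0.05 by limma.

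**Figure D4:**
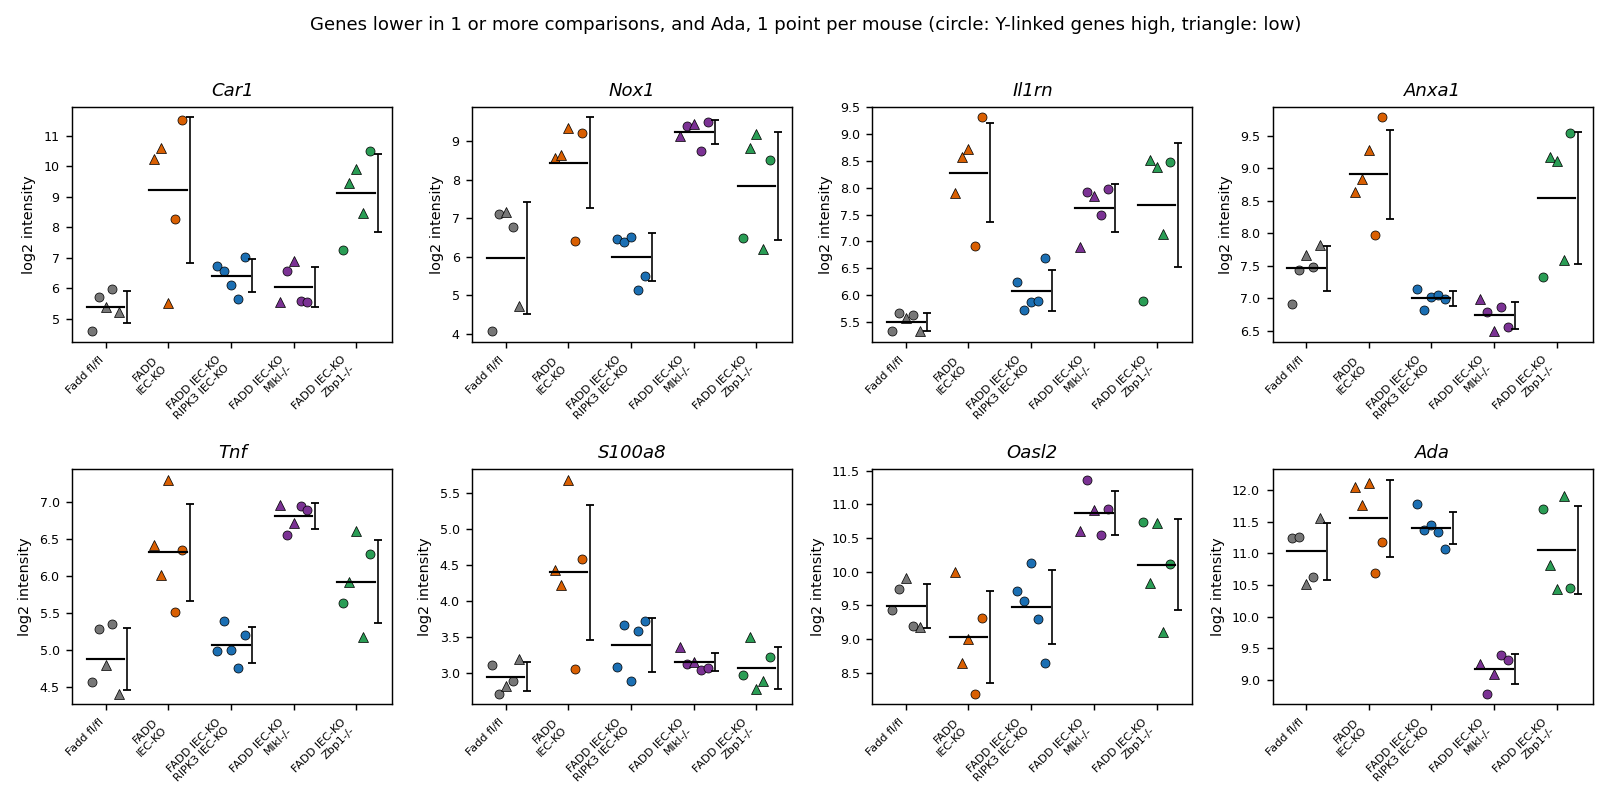
Log2 intensity of 8 genes in each mouse of 5 groups, with the group mean (line) and 1 SD (bar, n = 5); circles are mice with high and triangles mice with low Y-linked genes. Il1rn, Anxa1 and Tnf of the double mutants lie below all FADD IEC-KO mice, Car1 and Nox1 overlap through 1 FADD IEC-KO mouse each, and Ada is higher and Oasl2 lower in the double mutants than in every FADD IEC-KO Mlkl-/- mouse.

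Markers of other cells in whole ileum were set beside these changes. Of 17 neutrophil genes 3 fell: S100a9 (0.83 ± 0.19 lower), Il1r2 (0.48 ± 0.13 lower) and S100a8 (1.01 ± 0.28 lower, limma adjusted p = 0.0482), which was kept in 1 of 10 leave-outs, the one without FADD IEC-KO replicate 4. Il1r2 was kept in 3 of 10, those without double mutant replicate 3 or FADD IEC-KO replicate 1 or 4, and S100a9 in 8 of 10, not without FADD IEC-KO replicate 3 or 5. With the sex index Il1r2 (adjusted p = 0.1074) and S100a8 (adjusted p = 0.1615) lost their calls. Mpo, Elane and Ltf, defining granule genes of neutrophils, did not pass (-0.17, 0.20 and -0.05), and the mean level over the 17 genes was 4.61 to 5.06 in FADD IEC-KO and 4.48 to 4.58 in the double mutants. All 17 had mean levels in the lower part of the scale, below the median of all genes. Of 19 fibroblast and matrix genes 1 fell, the collagen gene Col5a1 (0.70 ± 0.19 lower), with a list median of -0.17; it lost its call without double mutant replicate 2, 3 or 4 or FADD IEC-KO replicate 2, 3 or 5. The part of these cells in the falls above was not tested.

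In 28 further lists with 446 measured genes no gene passed, and their medians lay between -0.26 and 0.41. The mucin Muc2 of goblet cells was 12.92 ± 0.09 (SD, n = 5) in FADD IEC-KO and 12.96 ± 0.10 in the double mutants. The replication clamp Pcna was 10.65 ± 0.19 and 10.40 ± 0.14; all 22 proliferation genes were lower without passing, and their median was -0.26. Slc12a2, an ion cotransporter used as a crypt base marker, was 10.66 ± 0.20 and 10.28 ± 0.30, and 11 of 12 stem cell genes were lower without passing. The interferon-induced Oasl2 was 9.03 ± 0.68 and 9.47 ± 0.55, and none of 31 type I interferon genes passed (median 0.36). Without the library labelled FADD IEC-KO replicate 1, 4 of those 31 rose, beside 205 of all 19494 genes.

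**Figure D5:**
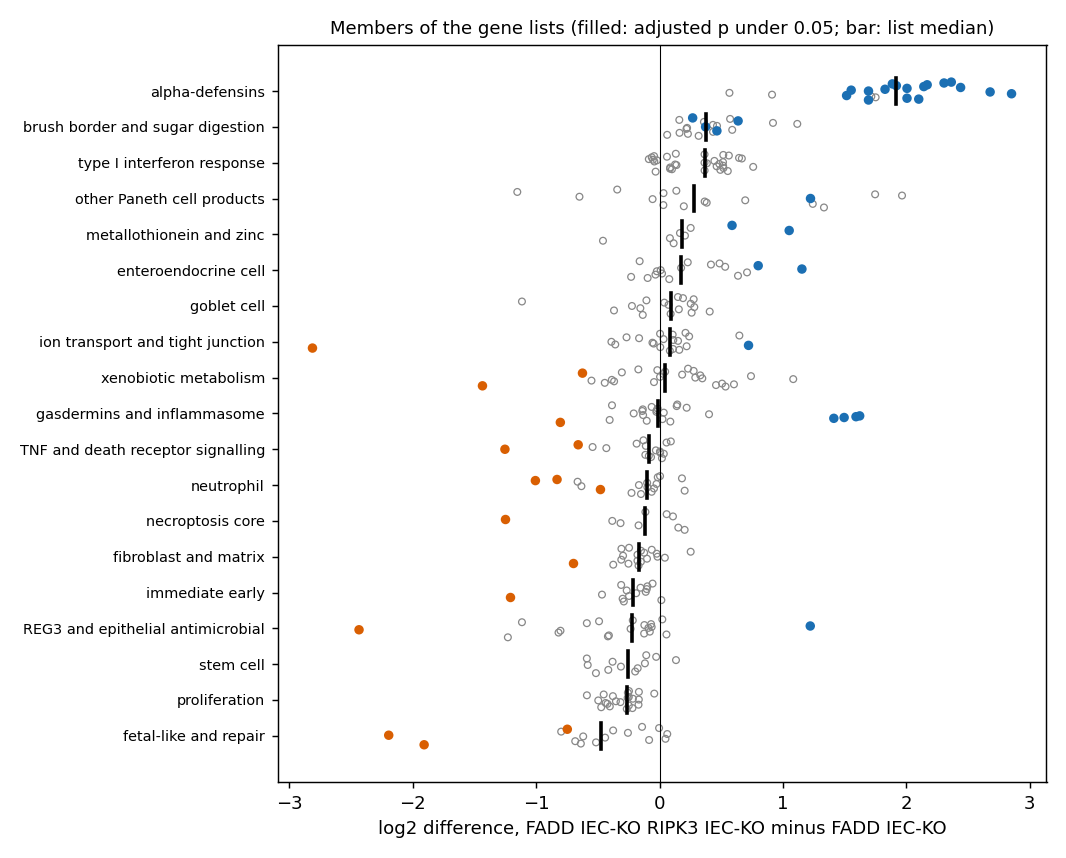
Each point is a measured gene of the list named on the vertical axis, placed on the horizontal axis by its log2 difference, double mutants minus FADD IEC-KO; filled points passed an adjusted p of 0.05 and black bars are list medians. The alpha-defensins stand at a median of 1.92 and the fetal-like and repair genes at -0.48, with most other medians near 0.

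The genes changed by epithelial caspase-8 loss gave a list from other arrays. In CASP8 IEC-KO against Casp8 fl/fl mice, where 4.17% of genes passed and 0.298% changed at least 2-fold as well, 37 genes fell and 20 rose at least 2-fold (adjusted p under 0.05; Casp8 itself left out). Of the 37 that fell, 21 rose in the double mutants against FADD IEC-KO and none fell, with a median of 1.69. Over all genes of that comparison 0.831% rose and 0.723% fell, with a median of 0.007. Counting identical rows once, 34 remain, of which 18 rose; of the 15 that are no alpha-defensins 3 rose, with a median of 0.96. Of the 20 that rose after caspase-8 loss, 10 fell in the double mutants and none rose, with a median of -0.64. The 28 distinct genes that moved the opposite way were 12 with the sex index, 11 when only these 10 arrays set the spread, and between 6 and 29 when 1 mouse was left out, with 6 reached without FADD IEC-KO replicate 5.

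The double mutants also differed from Fadd fl/fl mice, in 239 genes (1.23%), of which 110 were higher (0.564%), 129 were lower (0.662%) and 19 changed at least 2-fold (0.0975%). None of the alpha-defensins was higher than in Fadd fl/fl. Defa27 was lower by 1.2 ± 0.23 (limma adjusted p = 0.0034) and the other 20 did not pass. All 19 distinct rows were below Fadd fl/fl, by differences from -1.23 to -0.42 with a median of -0.67. Defa26 was 10.33, 10.28, 10.46, 10.57 and 10.17 in Fadd fl/fl, above every double mutant, at a difference of -0.51 ± 0.50 (limma adjusted p = 0.7193). That SE rests on the spread within all groups of the study, not on these 2 alone. An alpha-defensin that did not pass is therefore not shown to be at the control level. Other Paneth cell products were further from control: 6 of 16 were lower and none higher, with a median of -1.05. Ang4 was 9.56, 11.51, 11.77, 11.42 and 11.95 in Fadd fl/fl and 9.22, 8.54, 7.81, 9.16 and 10.12 in the double mutants. The first Fadd fl/fl mouse overlapped the double mutants, and the other 4 were above all of them. Ang4 was lower by 2.27 ± 0.54 (limma adjusted p = 0.0222), Clps by 2.12 ± 0.39 (adjusted p = 0.0025) and the intelectin Itln1 by 1.41 ± 0.32 (adjusted p = 0.0171). Ang4 lost its call without Fadd fl/fl replicate 2, 3, 4 or 5 or double mutant replicate 2 or 3, and Itln1 without Fadd fl/fl replicate 3 or 4 or double mutant replicate 2.

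The 3 largest rises over Fadd fl/fl were Mt1, Gsta2 and Fa2h. The metallothionein Mt1 was 11.1 to 11.55 in Fadd fl/fl and 12.57 to 12.75 in the double mutants, higher by 1.27 ± 0.09 (limma adjusted p = 1.06e-12). In FADD IEC-KO it was already 1.16 ± 0.09 above Fadd fl/fl. The glutathione transferase Gsta2 was higher by 1.25 ± 0.19 and the fatty acid hydroxylase Fa2h by 1.22 ± 0.26, which lost its call without Fadd fl/fl replicate 4. Of 19 fibroblast and matrix genes 9 were lower than in Fadd fl/fl, with a median of -0.54. Il1rn (0.58 ± 0.40), Nox1 (0.03 ± 0.57), Car1 (1.04 ± 0.70), Tnf (0.19 ± 0.25) and Hao2 (0.47 ± 0.33) did not pass against Fadd fl/fl, which does not show that their levels were equal. The count of 239 was 454, 109, 81 and 125 without Fadd fl/fl replicate 1, 3, 4 or 5, and 143 and 133 without double mutant replicate 2 or 5.

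Loss of RIPK3 was next set directly against loss of MLKL on the FADD IEC-KO background. Between double mutants and FADD IEC-KO Mlkl-/- mice 966 genes passed (4.96%), 568 higher (2.91%) and 398 lower (2.04%) in the double mutants, and 0.682% by at least 2-fold. Many interferon genes passed: 25 of 31 type I interferon genes were lower in the double mutants, with a median of -1.2, and 11 of 17 interferon gamma genes and 9 of 14 class I presentation genes were lower too. The mean over the 31 type I genes was 6.41 to 7.24 in the double mutants and 7.6 to 8.42 in FADD IEC-KO Mlkl-/-. That mean was 6.14 to 7.1 in FADD IEC-KO and 6.53 to 7.06 in Fadd fl/fl, both overlapping the double mutants. Isg15, an interferon-induced ubiquitin-like protein chosen after its values were seen, was lower by 1.86 ± 0.28 (limma adjusted p = 4.07e-05). Ubd, another ubiquitin-like modifier, was lower by 3.09 ± 0.54, Nox1 by 3.24 ± 0.57 and the surface protein gene Plet1 by 3.36 ± 1.03 (adjusted p = 0.0465).

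The purine enzyme Ada, adenosine deaminase, was 11.77, 11.37, 11.44, 11.34 and 11.07 in the double mutants and 9.26, 8.79, 9.1, 9.4 and 9.32 in FADD IEC-KO Mlkl-/-. It was higher by 2.22 ± 0.26 (limma adjusted p = 4.24e-07), and Fadd fl/fl mice lay between 10.51 and 11.55. Hao2 was higher by 2.33 ± 0.33 and the lactate transporter Slc5a12 by 2.22 ± 0.51. Of 19 brush border genes 10 were higher, and Lyz1 was higher by 1.52 ± 0.32 (adjusted p = 0.0029). Of the 21 alpha-defensins 2 were higher, Defa26 by 1.88 ± 0.50 and Defa28 by 1.57 ± 0.48, with a median of 1.11 over the 19 distinct rows. All 5 FADD IEC-KO Mlkl-/- mice and 3 of the 5 double mutants had title numbers under 100. The count of 966 was 853 with the title-number series as a covariate, 823 with the sex index and 167 (72 higher, 95 lower) among title numbers under 100 alone, 3 against 5. It was 495 and 442 without double mutant replicate 4 or 5, the 2 with title numbers of 200 and over, and 567 without FADD IEC-KO Mlkl-/- replicate 2. Among title numbers under 100 Ada differed by 2.35 ± 0.30 and Hao2 by 2.02 ± 0.39, both passing, while Slc5a12 (adjusted p = 0.1961) and Plet1 (adjusted p = 0.3981) did not pass; Plet1 also lost its call with the sex index (adjusted p = 0.0795), with the title-number series as a covariate, and without double mutant replicate 1, 4 or 5 or FADD IEC-KO Mlkl-/- replicate 1, 2, 3 or 5.

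Loss of RIPK3 was set against loss of ZBP1 in the same way. Between double mutants and FADD IEC-KO Zbp1-/- mice 394 genes passed (2.02%), 283 higher (1.45%) and 111 lower (0.569%) in the double mutants, and 0.364% by at least 2-fold. All 21 alpha-defensins were higher, with a median of 3.23, and so were 6 of 16 other Paneth cell products. Defa34 was higher by 4.06, Defa26 by 3.67 ± 0.50 and Defa43 by 3.65. Defa26 was 7.52, 5.75, 5.48, 6.39 and 5.79 in FADD IEC-KO Zbp1-/-, each below the lowest double mutant at 9.77. Car1 was lower by 2.70 ± 0.70, Myot by 1.81 and the surface protein gene Ly6d by 1.76 ± 0.43, and 5 of 16 fetal-like and repair genes were lower. The count of 394 was 133 and 128 without double mutant replicate 4 or 5, and 250 and 134 without FADD IEC-KO Zbp1-/- replicate 2 or 5. It was 370 with the sex index, where Defa26 differed by 3.45 ± 0.52 and Car1 lost its call (adjusted p = 0.0533). Car1 and Ly6d both lost their calls without double mutant replicate 4 or 5 or FADD IEC-KO Zbp1-/- replicate 2, 3 or 5, and Car1 also without double mutant replicate 3.

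The changes from FADD IEC-KO in the 3 groups that lack a second gene share the same FADD IEC-KO arrays and are given side by side only. These changes and the FADD IEC-KO levels below include the library labelled FADD IEC-KO replicate 1. The median over the 19 distinct alpha-defensin rows was 1.92 with RIPK3 lost (15 rose), 0.79 with MLKL lost (none passed; 1.61% of all genes did, 0.749% lower) and -1.12 with ZBP1 lost (1 fell; 3.32% of all genes passed, 2.47% lower). The mean level of the 21 alpha-defensins was 10.5 to 10.97 in the double mutants, 11.09 to 11.53 in Fadd fl/fl, 8.82 to 10.41 in FADD IEC-KO Mlkl-/-, 7.67 to 9.92 in FADD IEC-KO and 6.8 to 8.85 in FADD IEC-KO Zbp1-/-. In that order of medians the double mutants stood next to Fadd fl/fl without overlapping them, and above FADD IEC-KO Mlkl-/- without overlapping them. FADD IEC-KO Mlkl-/- overlapped FADD IEC-KO, which overlapped FADD IEC-KO Zbp1-/-.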

How the data were processed

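The deposited values are log2 intensities, normalized by the authors for 22142 probes on 45 arrays; the submitters' processing notes name Affymetrix Expression Console and Transcriptome Analysis Console, and the summarization method is not given in the sources used here. Probes were named through the platform annotation: 19527 had 1 symbol and 2615 (11.8%) none, and the probe with the highest mean over all arrays stood for each of 19494 genes. In limma 3.58.1 (R 4.3.3), 1 mean per group was fitted over all 45 arrays, which left 36 residual degrees of freedom, with eBayes and Benjamini-Hochberg adjustment over all genes, two-sided, at 0.05. Permutation tests were exact over the 252 splits of 5 against 5. SE is the fit's standard error. Replicates carry separate title numbers and are numbered in accession order; no label used here gives litters or cages, so p-values measure only the spread between these samples. No 2 arrays held identical values, and correlations within groups had medians of 0.983 to 0.991. The planned sex index was to use Xist and Y-linked genes; Xist had no row in the table used here, so it is the mean of 3 Y-linked genes, 3.63 or less in low arrays and 7.66 or more in high ones.

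Named genes are the 5 targeted genes, of the genes that passed, the 10 that rose most and the 10 that fell most (clone and Rik names left out), up to 3 called members of each list described (or its brightest member), and the 3 largest rises and falls of each other comparison; Defa21, Defa22, Defa25, Defa27, Mpo, Elane, Ltf and others marked in the text were chosen after their values were seen. The comparison, the gene lists and the lists described were chosen with earlier results of these data known. The test was checked on simulated data. The alternatives are in the closing section. Array number limits the precision: 5 mice per group.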

Additional observations from a re-analysis of the deposited data

Results flagged for a closer look

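In 126 groups of 5 values tested (the genes named for this comparison, in both groups), 3 single mice stood apart from the other 4 by a gap larger than 0.71 of the range. Chance gives about 5% of groups such a gap, a larger share than was found. Fadd in double mutant replicate 2 was 5.84, with the nearest mouse at 6.16. Nox1 in FADD IEC-KO replicate 4 was 6.41, with the nearest at 8.57. Tnfrsf1b in FADD IEC-KO replicate 4 was 6.87, with the nearest at 7.42. Both values of that mouse lay toward the double mutants, and it is 1 of the 2 FADD IEC-KO mice with high Y-linked genes; without it 667 genes passed in place of 303. Among the 2615 probes without a symbol, 32 passed between the double mutants and FADD IEC-KO (1.22%), 19 higher and 13 lower, with differences from -0.88 to 2.41.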

How the results depend on the processing

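No paired analysis was possible because the groups share no replicate number in the labels. Between double mutants and FADD IEC-KO, 303 genes passed (162 higher, 141 lower, 64 at least 2-fold; 28 distinct genes opposite to caspase-8 loss). Fitting only the 2 groups gave 19 genes (14, 5 and 17; 11), with 2340 at an unadjusted p under 0.05. The sex index gave 126 (74, 52 and 32; 12), the series of title numbers with the sex index 142 (73, 69 and 35; 14), and only the mice with high Y-linked genes 32 (28, 4 and 27). Only title numbers under 100, 3 against 4 mice, gave 0 genes by limma (0 higher, 0 lower, 0 at least 2-fold; 0), with 1982 at an unadjusted p under 0.05. Array weights gave 488 (253 lower); 226 genes were lower with dim genes (mean below the median gene) left out and 213 with the title-number series as a covariate. Quantile normalization (374), arrays centred on their medians (299), limma's trend and robust options (372) and the probe of highest variance (303) stayed within 1.5 times.

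Leaving out 1 mouse gave 53 to 667 genes, with 30 to 305 higher, 23 to 362 lower and 22 to 95 at least 2-fold, and 6 to 29 genes opposite to caspase-8 loss. Of the 41 genes named by rule that passed, 9 passed in every leave-out (Ripk3, Defa26, Defa28, Hao2, Pyy, Slc30a2, Il1rn, Anxa1 and Myot). Of those 41, 23 passed with the sex index and 12 with only the 2 groups. None changed sign, but where the groups did not overlap, leaving out mice could not change it. Of the genes named for this comparison, signs turned for 4 that had not passed: Zbp1 (-0.11) was 0.35 with title numbers under 100, 0.48 with high Y-linked genes only and -0.4 to 0.17 over the leave-outs, Muc2 (0.04) was -0.05 with title numbers under 100, Ltf (-0.05) was 0.16 with title numbers of 200 and over, 0.11 with high Y-linked genes only, 0 with series and sex index and -0.14 to 0.04 over the leave-outs, and Oasl2 (0.44) was -0.33 with title numbers of 200 and over, where 2 mice against 1 allow no test. Against Fadd fl/fl the count of 239 was 64 with only the 2 groups, 450 without dim genes, 238 with the sex index and 81 to 454 over the leave-outs. Against FADD IEC-KO Mlkl-/- the count of 966 was 1456 with array weights, 167 among title numbers under 100 (2334 at an unadjusted p under 0.05) and 442 to 1029 over the leave-outs. Against FADD IEC-KO Zbp1-/- the count of 394 was 68 with only the 2 groups, 597 without dim genes and 128 to 553 over the leave-outs. The alternatives with the high-Y mice, with series and sex together, with the sex index against the other 3 groups, with title numbers against Mlkl-/-, and for list counts and caspase-8 genes were chosen after seeing the data. The cause of these shifts was not tested, except that fits of fewer mice rest on fewer values.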
